A study of Mus musculus with 4 samples.

Results

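The genes described are the ATP-binding cassette (ABC) transporter genes outside a named set of bile transporters. Abcg5 and Abcg8, which serve sterol secretion into bile, are not in that set and are described here. They were taken by name from the deposited peak annotation: symbols of subfamilies Abca to Abcg, without Abcb11, Abcc2, Abcc3, Abcc4, Abcb4 and Abcb1a. The rule found 42 genes of the 25458 with a promoter or distal peak on chromosomes 1 to 19, X or Y. Liver of Mertk knockout mice after bile duct ligation was compared with liver of wild type mice after the same ligation. Mertk encodes a receptor kinase with which macrophages bind dying cells, and ligation of the bile duct causes cholestasis and fibrosis. Both arms carried the ligation, so no unligated liver stands behind any value. Nuclei of frozen liver were read with the 10x Multiome assay, in which a transposase cuts open chromatin (ATAC), and there was 1 ATAC library per genotype. The labels do not state the knockout allele, the strain, the sex or age of the mice, the time after ligation, or how many animals a library holds.

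ABC transporters use ATP to move substrates across membranes. Subfamily A moves lipids, B and C hold the multidrug exporters together with mitochondrial, lysosomal and channel-regulating members, D serves the peroxisome and, in Abcd4, the lysosome, and G holds sterol exporters. E and F lack membrane domains and act on ribosomes. In liver, hepatocytes secrete sterols into bile through the Abcg5 and Abcg8 heterodimer and load lipoproteins through Abca1, while macrophages unload cholesterol through Abca1 and Abcg1.

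A peak is a stretch of open chromatin called by the authors in 1 library, and the deposited lists give its position with no height, so a gene is described by the number and summed length of its peaks. The knockout library had 106319 peaks over 91.3 Mb and 83996145 ATAC fragments in 5339 nuclei, and the wild-type library 72302 peaks over 61.8 Mb and 40858512 fragments in 5828 nuclei. The knockout library thus held 1.47 times as many peaks and 2.06 times as many fragments, and a surplus of knockout peaks was the usual state of a gene. The libraries also differed in the share of fragments inside their own peaks, 46.0% in the knockout and 33.7% in the wild-type library. Although the labelled tissue is liver, 5 of 10 hepatocyte markers, Alb among them, had no peak in the wild-type library. Mertk itself had 13 peaks in the knockout library and 10 in the wild-type library, and since the deleted part is not given this checks neither label. With 1 library per genotype no test between genotypes could be made, and intervals below are exact 95% binomial intervals that cover counting error only. In peak lists called over all nuclei of a library, which were used here, fewer nuclei of a type and less open chromatin per nucleus cannot be told apart.

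The promoter windows of 5 genes are printed because they show the range of cases met below: Abcg5, with a promoter peak of the knockout library alone, Abca8a, with one of the wild-type library alone, and Abca8b, Abca1 and Abce1, whose promoter peaks were in both. They run 5′ to 3′ on the gene's strand, from 250 bases before to 50 bases after the start in RefSeq, build GRCm38.p6. Capitals mark every match, on either strand, to the E-box CACGTG, the GC box spelled GGGCGG, the CCAAT box, the TATA element spelled TATAAA, the motif of GATA factors spelled AGATAA, or the cyclic AMP response element spelled TGACGTCA.
Abcg5 (chr17:84682962-84683261, minus strand): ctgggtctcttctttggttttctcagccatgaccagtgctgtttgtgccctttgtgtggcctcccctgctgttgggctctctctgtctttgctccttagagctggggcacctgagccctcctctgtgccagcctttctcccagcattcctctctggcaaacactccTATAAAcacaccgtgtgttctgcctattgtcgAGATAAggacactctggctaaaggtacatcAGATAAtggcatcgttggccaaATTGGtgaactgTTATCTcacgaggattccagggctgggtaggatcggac
Abca8a (chr11:110095888-110096187, minus strand): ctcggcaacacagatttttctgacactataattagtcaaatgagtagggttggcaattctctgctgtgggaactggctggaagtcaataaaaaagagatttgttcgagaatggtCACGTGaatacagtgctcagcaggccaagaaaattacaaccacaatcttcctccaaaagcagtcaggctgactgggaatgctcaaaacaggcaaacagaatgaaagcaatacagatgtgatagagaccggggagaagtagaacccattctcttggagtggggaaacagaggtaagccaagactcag
Abca8b (chr11:109995796-109996095, minus strand): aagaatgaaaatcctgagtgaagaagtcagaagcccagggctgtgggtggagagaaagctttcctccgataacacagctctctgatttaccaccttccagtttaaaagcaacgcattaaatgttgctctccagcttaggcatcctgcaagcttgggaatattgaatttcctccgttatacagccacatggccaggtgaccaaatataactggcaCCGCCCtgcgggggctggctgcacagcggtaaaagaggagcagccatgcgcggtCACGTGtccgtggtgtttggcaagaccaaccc
Abca1 (chr4:53159846-53160145, minus strand): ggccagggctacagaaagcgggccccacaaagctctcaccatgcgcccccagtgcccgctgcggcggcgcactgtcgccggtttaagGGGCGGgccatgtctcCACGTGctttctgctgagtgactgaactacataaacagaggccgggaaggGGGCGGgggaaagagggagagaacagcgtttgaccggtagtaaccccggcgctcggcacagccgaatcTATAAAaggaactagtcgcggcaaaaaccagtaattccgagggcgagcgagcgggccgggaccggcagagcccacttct
Abce1 (chr8:79711691-79711990, minus strand): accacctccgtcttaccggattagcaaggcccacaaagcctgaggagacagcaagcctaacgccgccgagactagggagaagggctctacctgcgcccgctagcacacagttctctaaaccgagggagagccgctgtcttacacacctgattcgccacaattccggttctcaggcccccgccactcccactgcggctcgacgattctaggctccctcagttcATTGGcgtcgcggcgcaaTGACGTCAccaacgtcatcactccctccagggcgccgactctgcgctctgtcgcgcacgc
The Abcg5 window held 3 AGATAA matches, 1 TATAAA and 1 CCAAT, and no GC box. Of all 32851 RefSeq windows of this length 11.2% held AGATAA, 13.6% TATAAA, 37.4% CCAAT, 35.7% GGGCGG, 7.15% CACGTG and 1.79% TGACGTCA. The Abca1 window held 2 GC boxes with 1 E-box and 1 TATAAA, Abca8b 1 GC box and 1 E-box, Abca8a an E-box alone, and Abce1 1 CCAAT and 1 TGACGTCA. Each share counts windows with at least 1 match. AGATAA and TGACGTCA were chosen after these sequences were seen, so their presence here cannot be weighed against those shares. A match is a run of letters, not evidence that a factor binds there.

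Across the 42 genes the knockout library had more ABC transporter peaks, by about the same margin as it had for genes in general. The annotation gave them 273 peaks in the knockout library and 162 in the wild-type library, a ratio of 1.69. The knockout share of the sum was 62.8% (interval 58.0% to 67.3%), and over the 25416 other genes it was 59.5%, within that interval. More knockout than wild-type peaks were listed for 25 genes (59.5%), against 60.3% of all genes. Equal numbers were listed for 11 genes, or 26.2% against 23.5%, and fewer knockout peaks for 6 genes, or 14.3% against 16.2%. In these counts the transporters did not stand apart from the genome. The 6 genes with fewer knockout peaks were Abca13, Abcb8, Abcc8, Abcd2, Abce1 and Abcg3. At Abcb8 the difference lies in the assignment, since its 2 wild-type peaks overlapped knockout peaks and only 1 knockout peak was assigned to the gene.

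**Figure D1:**
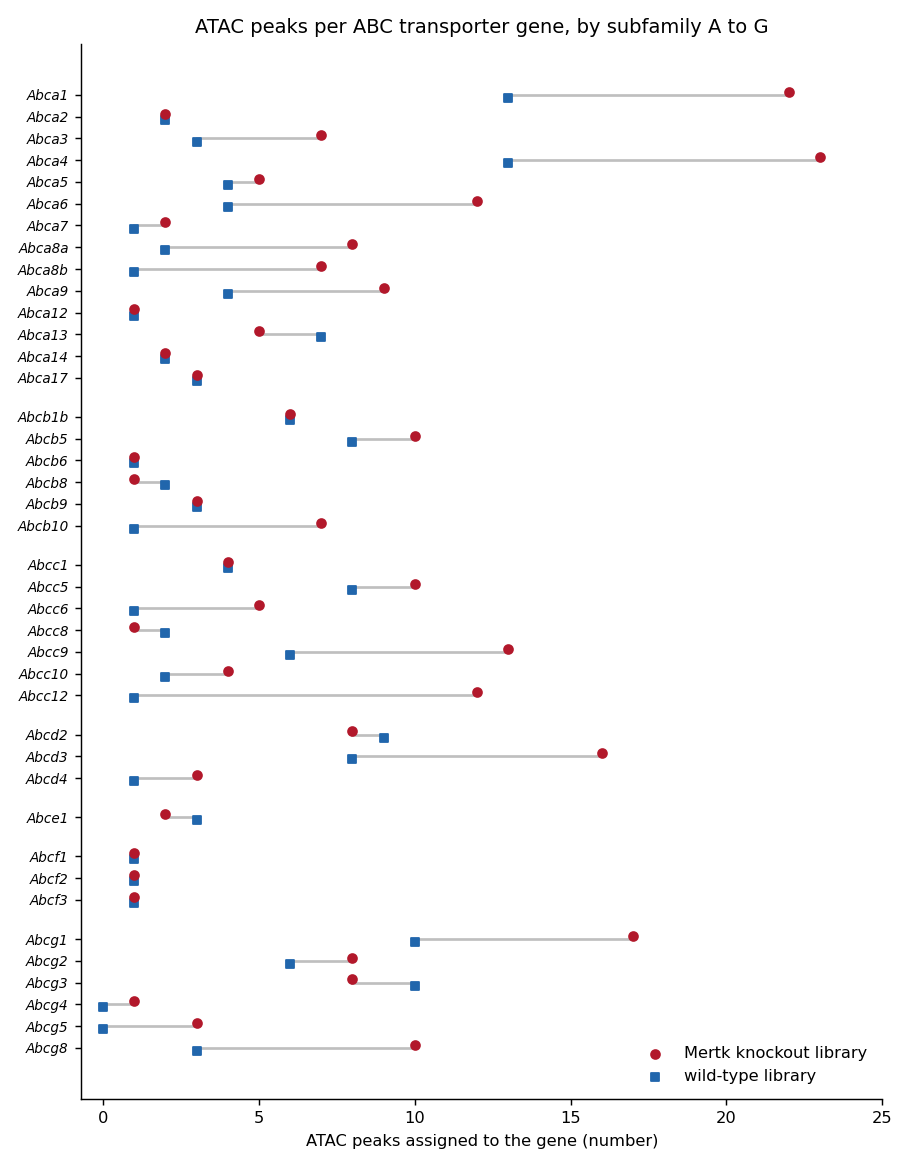
Number of ATAC peaks assigned to each of 40 of the 42 genes (x axis) in the Mertk knockout library (red circles) and the wild-type library (blue squares), 1 library each, with genes grouped by subfamily A to G. The widest gaps in favour of the knockout library include Abcc12 (12 and 1), Abca4 (23 and 13) and Abca1 (22 and 13), while the 3 Abcf genes have 1 peak in each library.

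Promoter peaks were mostly common to both genotypes, and distal peaks less so. Of 37 knockout promoter peaks 89.2% overlapped a wild-type peak (interval 74.6% to 97.0%), and of 35 wild-type promoter peaks 97.1% overlapped a knockout peak (85.1% to 99.9%). Over the other genes these shares were 78.9% and 93.5%. Of 225 distal knockout peaks 39.1% were shared (32.7% to 45.8%), and of 125 distal wild-type peaks 69.6% (60.7% to 77.5%), against 43.7% and 67.1% over the other genes. Each of these intervals held the share of the other genes. In 27 genes with exactly 1 promoter peak in each library the peaks overlapped, as they did in 99.5% of the 12189 such genes in all, with a median shift of 26.5 bp between centres (0.5 to 99.5 bp), against 25 bp over all, and median widths of 898 bp in the knockout and 896 bp in the wild-type library.

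**Figure D2:**
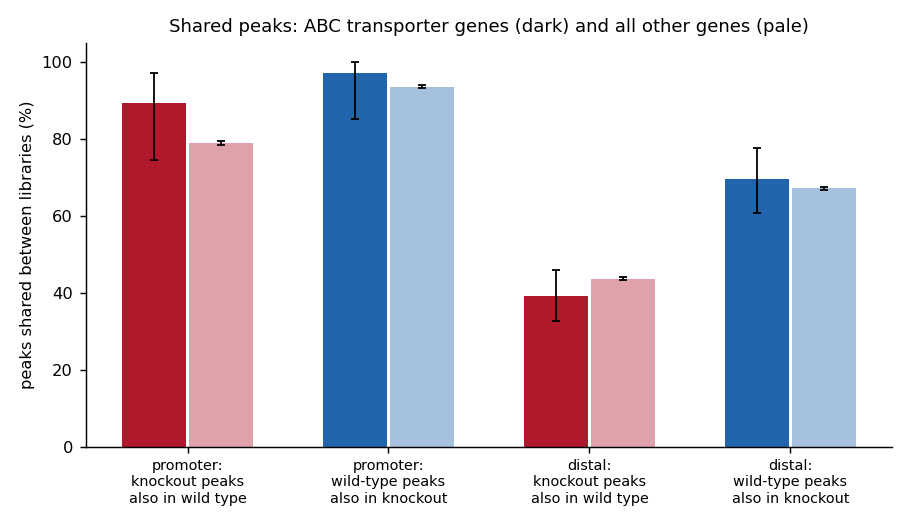
Percent of peaks of each library (bars, knockout red, wild type blue) with at least 1 bp in common with the other library's peaks, for the 42 ABC transporter genes (dark) and all other genes (pale), with exact 95% binomial intervals for counting error. The dark bars are near the pale ones: 39.1% and 43.7% for distal knockout peaks, and 69.6% and 67.1% for distal wild-type peaks.

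Of the 36 genes with a promoter peak in either library, 31 had one in both, or 86.1%, against 81.4% over all genes. The knockout library alone had one for 4, Abcc6, Abcg4, Abcg5 and Abcg8, or 11.1%, against 15.4% over all genes. The wild-type library alone had one for 1, Abca8a, or 2.78%, against 3.17%. No promoter peak was listed in either library for Abca12, Abca13, Abca17, Abcb5, Abcc8 and Abcc12. For 2 genes, Abcg4 and Abcg5, all peaks were in the knockout library (4.76% of the members, against 13.0% of all genes), and no member had peaks in the wild-type library alone (2.14% of all genes).

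Accessible length, the summed length of a gene's peaks, was compared on a log2 scale with 1 kb added on both sides and the median over all genes, 0.39, subtracted. A positive value means more than the median gene's surplus in the knockout library, and genes at 1 or above are called higher and those at -1 or below lower, by size and with no test. The ratio was read for 28 genes with a mean of 2 kb or more. Of these, 5 were higher, Abcc12, Abca8b, Abcb10, Abcc6 and Abca8a, or 17.9% (interval 6.06% to 36.9%), against 10.3% of all genes. None was lower, against 4.08% of all genes. The median was 0.31 over these 28 genes, 0.06 over all 42 with no minimum, and 0 over all genes by construction. All 5 high genes had 1 or 2 wild-type peaks, so each ratio rests on very few wild-type peaks. Their wild-type lengths, 0.561 to 1.75 kb, were under 2 kb, so they reached the minimum only through their knockout peaks. The count of higher genes is therefore not independent of the minimum, which was the same for all genes. When peaks assigned to more than 1 gene were left out, 26 genes reached the minimum and 2 were higher, Abcc12 and Abcc6, against 10.4% of all genes, while Abcb10 (0.94), Abca8b (0.92) and Abca8a (0.86) lay just under the limit.

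By subfamily, C and A had the larger ratios of peaks and the soluble E and F the smallest. Subfamily C had 49 knockout and 24 wild-type peaks over 7 genes (2.04-fold, knockout share 67.1%, interval 55.1% to 77.7%) and a median ratio of 0.45 over 6 measured genes. Subfamily A had 108 and 60 peaks over 14 genes (1.80-fold, 64.3%, 56.5% to 71.5%) and a median of 0.43 over 10. Subfamily G had 47 and 29 over 6 genes (1.62-fold, 61.8%, 50% to 72.8%), with a median of 0.10 over 4. Subfamily D had 30 and 19 over 4 genes (1.58-fold, 61.2%, 46.2% to 74.8%), with a median of 0.04 over 2. Subfamily B had 34 and 24 over 7 genes (1.42-fold, 58.6%, 44.9% to 71.4%), with a median of -0.13 over 5. The single E gene had 2 and 3 peaks and the 3 F genes 3 and 3. The intervals of all subfamilies overlapped, and each held the genome's 59.5%, so no order among them is established by these counts.

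**Figure D3:**
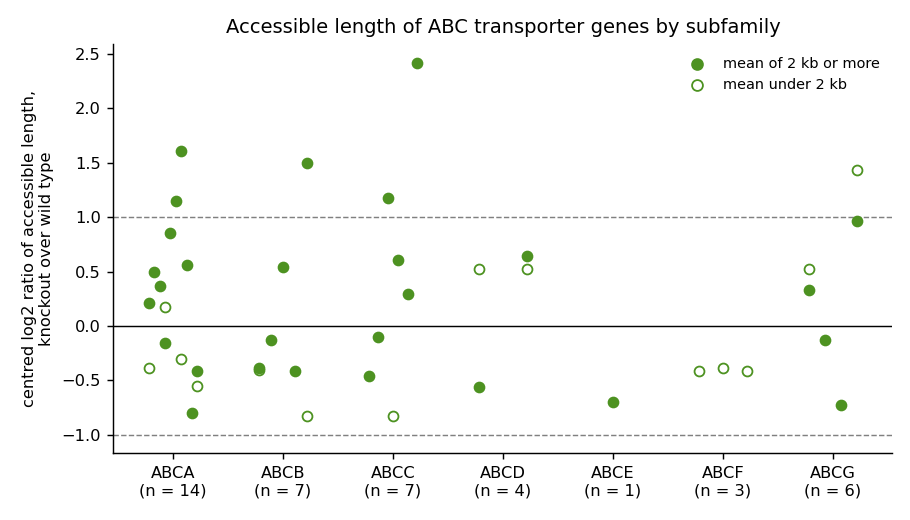
Centred log2 ratio of accessible length, knockout over wild type (y axis), for each gene by subfamily (x axis). Filled points are genes with a mean of 2 kb or more, open points those under it, and dashed lines mark 1 and -1. Abcc12 is highest at 2.42, no gene reaches -1, and the 3 F genes lie between -0.41 and -0.39, where a gene of equal length in both libraries falls after centring.

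Distal peaks of subfamily D were the least shared of the subfamilies with over 10 of them in each library: 23.1% of 26 in the knockout library (interval 8.97% to 43.6%) and 40.0% of 15 in the wild-type library (16.3% to 67.7%). Those of subfamily B were the most shared, 53.6% of 28 in the knockout library (33.9% to 72.5%) and 88.2% of 17 in the wild-type library (63.6% to 98.5%). Subfamilies A, C and G lay between, at 37.5%, 36.4% and 44.7% of knockout and 71.7%, 80.0% and 64.0% of wild-type distal peaks. Over all genes the shares were 43.7% and 67.1%, the knockout interval of D ending at 43.6%, and the intervals of D and B overlapped in both libraries. Of the 26 knockout peaks of D, 15 were of Abcd3. A low knockout share was not particular to D. In a list of peroxisome partner genes, read below, 22.7% of 88 distal knockout peaks (14.5% to 32.9%) and 60.0% of 35 wild-type ones (42.1% to 76.1%) were shared.

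Among the sterol and phospholipid exporters, every one of the 6 genes showed a knockout surplus, with 55 knockout and 27 wild-type peaks in sum (knockout share 67.1%, interval 55.8% to 77.1%). Over all genes 60.3% had a knockout surplus, and the interval held the 59.5% share of the other genes. The 55 assignments stand for 52 distinct knockout peaks, since Abcg5 and Abcg8 have peaks in common, which the interval does not take into account. The most uneven pair was Abcg5 and Abcg8, which lie head to head on chromosome 17 and together encode the pump that secretes cholesterol and plant sterols into bile. Abcg5 had 3 peaks in the knockout library and 0 in the wild-type library, and Abcg8 had 10 and 3. They share 1 promoter peak (chromosome 17, 84682763 to 84683698, GRCm38), found in the knockout library alone. It covers all 300 bases of the Abcg5 window printed above, and no wild-type peak touched that window. The Abcg8 ratio was 0.96, just inside the limit of 1, and Abcg5 lay under the length minimum with 2.55 kb of knockout peaks and none in wild type. Of the 10 Abcg8 knockout peaks 6 were also assigned to another gene, as were all 3 of Abcg5. With peaks of 1 gene only, the Abcg8 ratio was 0.24. By position in the gene and 5 kb around it, a setting chosen after seeing the data, it was 0.96. Inside and around the pair, knockout peaks alone lay 1213, 5916 and 10364 bp downstream of the Abcg8 start, while knockout peaks at 15342 and 35779 bp were shared, and 1 wild-type peak, at 18005 bp, stood alone. With 20 kb on each side, 9 of 12 knockout peaks were in that library alone, and 2 of 5 wild-type peaks in theirs, where over all genes 50.5% of knockout and 27.5% of wild-type peaks were alone.

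Abca1, which hands cholesterol and phospholipid to apolipoprotein A-I, had 22 peaks in the knockout library and 13 in the wild-type library, of which 9 in each were shared. Its accessible length was 17.5 kb in the knockout and 11.1 kb in the wild-type library, a centred ratio of 0.21, which was -0.44 when the knockout list was limited to its widest peaks, as many as in wild type. Its promoter peak was shared, and both libraries covered the whole window printed above. Of the peaks in 1 library alone, 13 were of the knockout and 4 of the wild-type library, so each had sites that the other lacked. Abcg1, which moves sterol toward high-density lipoprotein, had 17 and 10 peaks (14.2 and 8.21 kb, ratio 0.33, or -0.52 under the same limit), with 9 found in the knockout and 3 in the wild-type library alone. Abca7, a relative of Abca1, had 2 knockout peaks and 1 wild-type peak. Abcg4, known from brain, had 1 and 0.

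**Figure D4:**
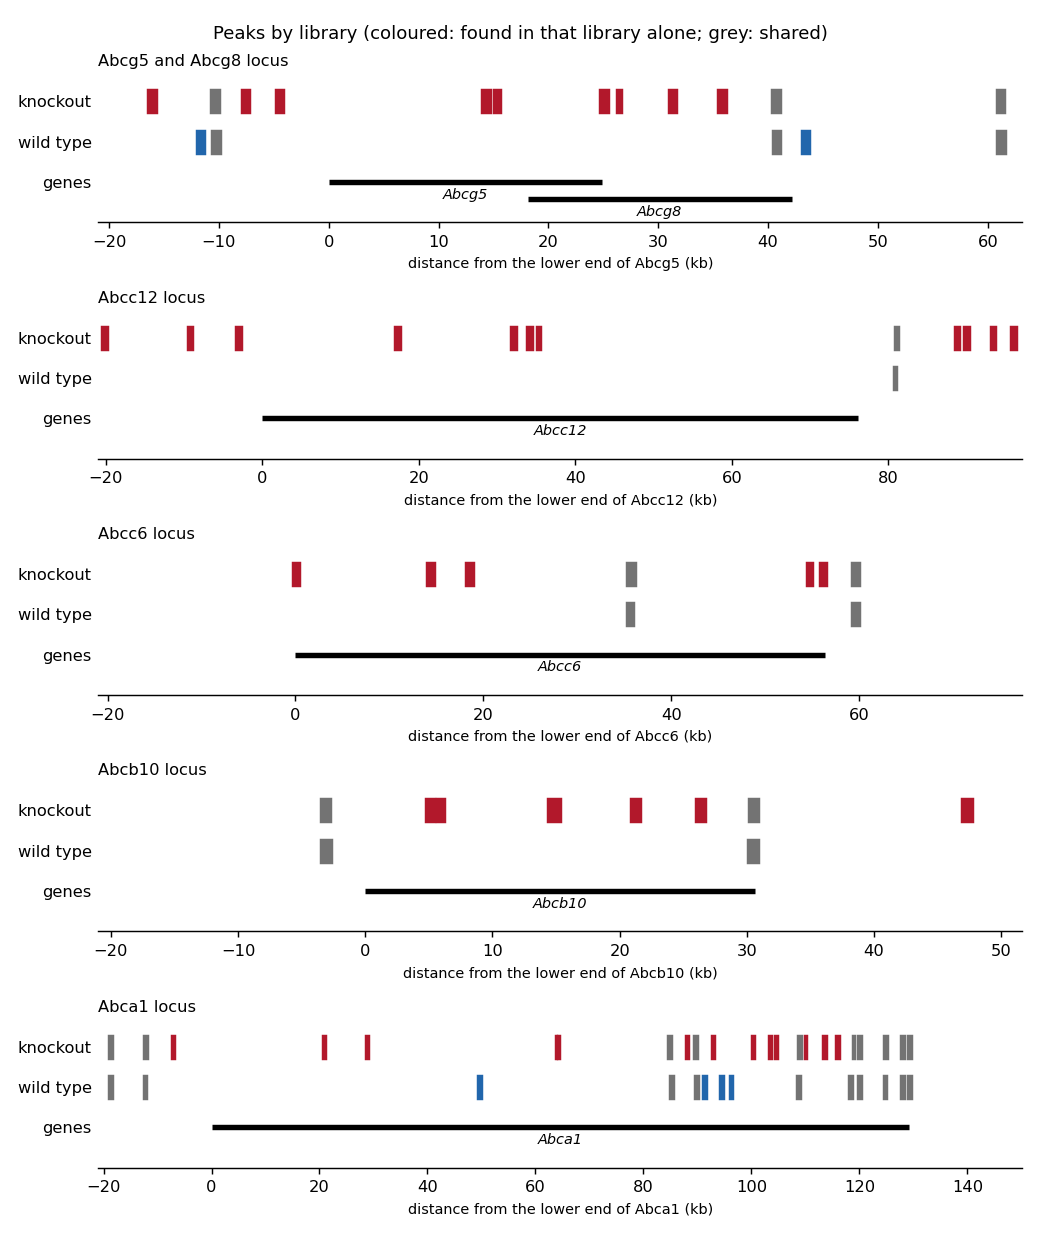
Called peaks of the knockout library (upper row of each panel) and the wild-type library (lower row) over 5 loci, with gene bodies in black and distance from the gene's lower coordinate in kb (x axis). Coloured blocks are peaks in that library alone and grey blocks are shared. At Abcc12 11 of 12 knockout peaks are coloured and the only wild-type peak is grey. At Abca1 10 peaks of each library are grey.

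The other ABCA lipid transporters had 84 knockout and 46 wild-type peaks over 12 genes, with 7 genes having more in the knockout library, 4 equal and 1 fewer. A cluster on chromosome 11, where Abca8b, Abca8a, Abca9, Abca6 and Abca5 lie side by side over 406 kb, held 41 of these knockout and 15 of these wild-type peaks. The 37 members outside the cluster had 232 and 147. Neighbours can share a peak in the annotation, and over all 42 genes 11 knockout peaks and 2 wild-type peaks were each listed for 2 members. Counted by position, with 20 kb on each side, the cluster had 33 knockout peaks, 23 of them in that library alone, and 12 wild-type peaks, 2 of them alone, beside the 50.5% and 27.5% alone over all genes.

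Within the cluster Abca8b had 7 knockout peaks and 1 wild-type peak (6.16 and 0.781 kb, ratio 1.61), and its promoter peak was the shared one. Abca8a had 8 and 2 (6.99 and 1.75 kb, ratio 1.15). Its promoter peak (chromosome 11, 110095264 to 110096129) was called in the wild-type library alone and covered 242 of the 300 bases printed above, and in the knockout library the nearest peaks lay at 1049 bp and -1328 bp from the annotated start, where a negative distance is upstream. Thus Abca8a had more open length in the knockout library but no called promoter peak at the annotated start there. The RefSeq gene body reaches to 110097580, inside the knockout peak at -1328 bp (110097306 to 110098171). The knockout library therefore had a peak over the outer 5′ end of the gene, and the promoter difference holds for the annotated start alone. Abca6 had 12 and 4 peaks (ratio 0.85), all 4 wild-type peaks being shared, with a second promoter peak in the knockout library. Abca9 had 9 and 4 (0.56). Abca5, at the end of the cluster, had 5 and 4 (-0.16). The ratios along the cluster depended on peaks assigned to a pair of neighbours: without such peaks Abca8b was at 0.92, Abca8a at 0.86, Abca6 at 0.67, Abca9 at -0.08 and Abca5 at -0.06. By position in the gene and 5 kb around it, a setting chosen after seeing the data, they were at 0.64, 1.59, 1.25, 0.06 and -0.09 in the same order.

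**Figure D5:**
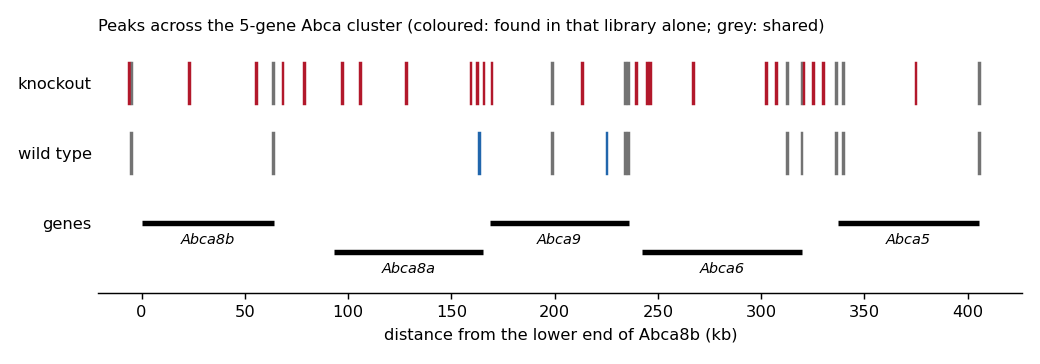
Peaks of the knockout library (upper row) and the wild-type library (lower row) along the 406 kb Abca cluster of chromosome 11, with distance from the lower coordinate of Abca8b in kb (x axis). Coloured blocks are in that library alone (23 knockout, 2 wild type), grey blocks are shared, and black bars are the 5 genes.

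Elsewhere in this group Abca4, the retinoid flippase of photoreceptors, had 23 and 13 peaks over a gene of 136.2 kb, 12 shared in each library (ratio 0.37). Abca3, which packs surfactant lipid in lung, had 7 and 3 (0.50), and the adjacent Abca17 had 3 and 3 (-0.41). Abca13, at 492.9 kb the longest of the 42 genes, had 5 knockout and 7 wild-type peaks and the lowest ratio, -0.80. That is 1.01 peaks in the gene per 100 kb in the knockout and 1.42 in the wild-type library, and 3 of its peaks were shared. Abca2 and Abca14 had 2 and 2 peaks, all shared. Abca12, a lipid transporter of skin, had 1 in each library at different positions.

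Multidrug and conjugate exporters had 67 knockout and 46 wild-type peaks over 9 genes, close to the genome's ratio (59.3%, interval 49.6% to 68.4%). Abcb1b, a mouse P-glycoprotein that expels drugs, had the same landscape in both libraries: 6 peaks each, all shared, with 5.37 kb in the knockout and 5.35 kb in the wild-type library. All 6 were also assigned to a neighbour, so they are not specific to Abcb1b. Abcc1, which exports glutathione conjugates and leukotriene C4, had 4 and 4, 3 of them shared, and its ratio was -0.46. Abcg2, the breast cancer resistance protein, had 8 and 6 with 5 shared and 2 promoter peaks in each library (-0.13). Abcc5, an exporter of cyclic nucleotides, had 10 and 8 with 7 shared (-0.10), and Abcb5 10 and 8 with all 8 wild-type peaks shared (-0.13). Abcg3 had 8 and 10 with 6 shared (-0.73), and Abcc10 4 and 2 (0.29).

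Abcc12 and Abcc6 went far from the rest of this group. Abcc12 had 12 knockout peaks and 1 wild-type peak, 9.95 and 0.561 kb, which gave the highest ratio of all members, 2.42. The knockout share of its peaks was 92.3% (interval 64.0% to 99.8%), none of its peaks was assigned to another gene, and neither library had a promoter peak. Of the 12 knockout peaks 4 lay in the gene and 8 outside it, between 81759 bp and -19453 bp from the annotated start. The single wild-type peak, at -4403 bp, was shared. Abcc6, through which hepatocytes release ATP and which is mutated in human pseudoxanthoma elasticum, had 5 and 1 peaks, 4.55 and 0.858 kb (ratio 1.18). Its promoter peak (chromosome 7, 46029828 to 46030727) was in the knockout library alone, and the 1 wild-type peak, inside the gene, was shared.

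Among the mitochondrial transporters Abcb10, an inner-membrane protein linked to heme synthesis, had 7 knockout peaks and 1 wild-type peak, 6.12 and 0.916 kb (ratio 1.5). The promoter peak was the shared one, 26.5 bp apart between libraries, and all 6 further knockout peaks lacked a wild-type partner, 3 of them also being assigned to a neighbour. Abcb6, a porphyrin transporter, had its promoter peak alone in each library, and Abcb8 had 1 knockout and 2 wild-type promoter peaks, all of them shared.

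Peroxisomal transporters import fatty acids for shortening. Abcd3, which carries branched-chain acids and bile acid intermediates, had 16 and 8 peaks (14.1 and 6.37 kb, ratio 0.64), yet only 3 of them were shared in each library. Upstream of its start, 8 knockout peaks at -9505 to -66117 bp had no wild-type partner, and 4 wild-type peaks at -25361 to -29944 bp had no knockout partner. The shared upstream peaks lay at -31734 and -36608 bp in the knockout library and at -31834 and -36481 bp in the wild-type library. Abcd2 had 8 and 9 peaks with 5 shared (-0.56). In the lysosomal pair, Abcd4, a cobalamin transporter, had 3 and 1, and Abcb9, a peptide transporter, had 3 and 3.

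The sulfonylurea receptors regulate potassium channels. Abcc9, of vascular and pericyte channels, had 13 and 6 peaks (11.5 and 5.26 kb, ratio 0.61), and all 6 wild-type peaks, the promoter's among them, were shared. Its channel partner Kcnj8 had 8 and 6 (-0.04). Abcc8, of pancreatic beta cells, had 1 and 2, at different positions.

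The soluble translation factors gave a flat picture. Abcf1, which acts in translation initiation, and Abcf2 and Abcf3 each had 1 peak in each library, the shared promoter peak, with lengths of 0.914, 0.905 and 0.898 kb in the knockout and 0.932, 0.896 and 0.925 kb in the wild-type library. Abce1, which splits ribosomes after termination, had 2 and 3 peaks (ratio -0.70), and the wild-type excess was 1 peak beyond the gene's end. Its promoter peak covered the whole printed window in both libraries.

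Related genes outside the group were read from lists of partners. Of all measured genes 10.3% were higher and 4.08% lower, so counts of 1 or 2 genes say little about a short list. Of the 9 ABC genes left out or named otherwise, 8 reached the minimum, with 1 higher, Abcb11 (7 and 0 peaks, ratio 2.41), and 1 lower, Tap2 (2 and 4, -1.14). Tap1, which with Tap2 forms the antigen peptide transporter, had 3 and 5 (-0.86). Of 12 measured sterol partners 2 were higher, Apoa1, also a hepatocyte marker (24 and 7, 1.21), and Soat2, the cholesterol esterifying enzyme of hepatocytes (5 and 1, 1.06), and the next was Srebf2 at 0.85. Their median was 0.58. Nr1h3, the sterol receptor that drives Abca1 and Abcg1, had 2 and 3 peaks (-0.72) and is named outside the rule, its value having been seen. Of 11 measured peroxisome partners 1 was higher, Ppara (22 and 4, 1.75), with Acsl1 at 0.80, and the median was 0.35. Of 7 measured heme and iron-sulfur partners 1 was higher, Fech, which inserts iron into heme (9 and 1, 1.81), and 2 were lower, Slc25a38 (1 and 4, -1.65) and Iscu (4 and 6, -1.07), with a median of -0.39. Of 6 measured translation partners 1 was higher, Etf1 (8 and 2, 1.03), with a median of 0.21, and the next in size were Eif2s1 at -0.71 and Gcn1 at 0.40. Both potassium channel partners were at -0.04.

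Hepatocyte markers differed more between the libraries in number of peaks (6.27-fold) than the transporters did (1.69-fold). The 10 hepatocyte markers had 94 knockout peaks (3 to 24 per gene) and 15 wild-type peaks (0 to 7), with Alb, Cps1, Cyp2e1, Cyp3a11 and Serpina1a at 0 in the wild-type library, and Ttr, at 3 and 4, going the other way. The 8 stellate or fibroblast markers had 67 (2 to 13) and 14 (0 to 6), with Des and Lrat at 0 in wild type. The 6 endothelial markers had 112 (12 to 27) and 62 (3 to 14), and the 6 cholangiocyte markers 20 (0 to 9) and 9 (0 to 5), with Krt7 at 0 in both and Sox9 and Pkhd1 at 0 in wild type. The 8 macrophage markers had 50 (1 to 10) and 65 (1 to 15). They were split: 4 had fewer knockout peaks, 1 as many, and 3 more, Clec4f, Csf1r and Cd68. The 4 neutrophil markers had 17 (2 to 7) and 21 (1 to 11), with 2 lower in the knockout library and 2, S100a8 and S100a9, going the other way. The 5 T or natural killer markers had 6 (0 to 2) and 12 (1 to 6), with Nkg7 at 0 in the knockout library. The 3 B markers had 1 and 4, with Cd79a at 0 in both. Hepatocytes are the liver cells known to use Abcg5, Abcg8 and Abcc6, whose promoter peaks were in the knockout library alone. Abcg5 and Abcg8 have 1 such peak in common. The promoter peak of Abcg4, known from brain, was also in the knockout library alone. That of Abca1, which hepatocytes use too, was in both libraries. The part of hepatocyte and stellate chromatin in these transporter differences was not tested.

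RefSeq promoter windows were at hand for 31 of the 42 genes, 37 windows in all, and CpG content was read in them. Abcc6 and Abcg4, whose promoter peaks were of the knockout library alone, are without a window, so those that differed come from 2 loci. In the 25 windows with a peak in both libraries the median CpG observed over expected was 0.81 (0.13 to 1.12) and 18 held a GC box (72.0%, against 64.9% of all such windows). The 2 windows with a knockout peak alone, of Abcg5 and Abcg8, overlap each other and had 0.24 and 0.29, and the 1 with a wild-type peak alone, of Abca8a, had 0.28. In the 9 windows with no peak the median was 0.31. Over all 32851 windows the medians were 0.77 with a peak in both libraries, 0.36 with a knockout peak alone, 0.29 with a wild-type peak alone and 0.21 with none. CCGGAAG (an ETS motif) was found in 3 of the 37 windows, CAAAGTCCA (an HNF4 motif) in 1, of Abcd3, TGANTCA (AP-1) in none, and of a pair of longer motifs the NRF1 palindrome in 1, of Abcb10, and a spaced nuclear receptor repeat in none. Over all windows these were found in 8.86%, 0.475%, 7.81%, 0.971% and 0.0152%.

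The share of peaks inside gene bodies differed between libraries by less than counting error. Of the knockout assignments 70.0% lay in the body of their gene (191 of 273, interval 64.1% to 75.3%), and of the wild-type assignments 71.0% (115 of 162, 63.3% to 77.8%). Genes of 50 kb or more had a median of 7.5 knockout and 4 wild-type peaks (24 genes), and shorter genes 2.5 and 1 (18 genes). All peaks of 8 genes were shared in both libraries (19.0%, against 16.3% of all genes): Abca2, Abca14, Abcb1b, Abcb6, Abcb8, Abcf1, Abcf2 and Abcf3. At least 1 knockout peak without a wild-type partner was found for 33 of the 42 genes (78.6%, against 73.7% of all genes), and at least 1 wild-type peak without a knockout partner for 20 (47.6%, against 43.4%). These shares lay near those of all genes.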

How the data were processed

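RNA and ATAC libraries were made from the same nuclei, 1 library per genotype and assay. Per the file headers, cellranger-arc 2.0.2 with mm10 made the deposited peak lists, 1 run per library. For the peak calling settings: not given in the sources used here. Peak positions and the authors' distances to genes are in bp, with no score. Raw counts per barcode, as deposited, served for depth alone. Separate calling makes the number of peaks move with depth.

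Contigs other than chromosomes 1 to 19, X and Y were left out, and a peak listed repeatedly for a gene symbol counted once. A shared peak overlapped by at least 1 bp. The calculation was tested on simulated data and the overlaps checked against bedtools. Gene coordinates and promoter windows are RefSeq's, build GRCm38.p6, the assembly of mm10. AGATAA and TGACGTCA were added after the promoter sequences were seen. Genes described singly are those past the size rule, those with a promoter peak or all peaks in 1 library, those with most peaks, a list of 11 known transporters, and the 3 largest ratios of each partner list. Some genes that the rule takes are left out of the text and the plot of peaks per gene; totals include them. The members, lists and rules were chosen with earlier results of these data known. Settings in 13 alternatives were listed at the start and 1 was added. Tables were made with Python 3.11.15, pandas 2.3.3 and numpy 2.4.6, intervals with scipy 1.17.1, and figures with matplotlib 3.10.9.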

Additional observations from a re-analysis of the deposited data

How the results depend on the processing

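No paired analysis was possible because the genotypes have a single ATAC library each, and for that reason no replicate could be left out either. Over 14 alternatives, 110 of 121 recomputed summary values stayed within their counting interval or within 1.5 times the number of genes. For medians this interval came from summed peak counts, so it is not the interval of a median. Subfamily medians counted as stable still changed sign. With the widest knockout peaks G went from 0.1 to -0.21 and D from 0.04 to -0.2. By position C went from 0.45 to -0.04, and with distal peaks alone B went from -0.13 to 0.28. Those of A and E kept their sign. The counting intervals of single genes are too wide to show stability: of 320 recomputed ratios of 28 genes, 13 changed sign, 9 lost the call and 11 gained one. Of the sign changes 5 came with the widest knockout peaks, Abca1 (-0.44) and Abcg1 (-0.52) among them. The number of higher genes, 5 as reported, was 2 of 26 without peaks of several genes (10.4% of all genes), 3 of 28 with a pseudocount of 2 kb (7.13%), 2 of 18 with a minimum of 4 kb (8.58%) and 9 of 28 without centring (19.6%). Without centring the median was 0.70. When the widest knockout peaks were kept, as many as in wild type, the knockout share of peaks was 52.9%, 55.0% of wild-type peaks were shared, 6 promoters were in wild type alone and 1 gene, Abcg3, was lower (6.40% of all genes). Peaks counted by position in the gene and 5 kb around it, an alternative chosen after seeing the data, gave a median of 0.00, 1 lower gene, Abcc1 (2.91% of all genes), and 5 higher genes, Abca6, Abca8a, Abcc12, Abcc6 and Abcd3 (7.49%), while Abca8b (0.64) and Abcb10 (0.99) were no longer past the limit. The cause of these shifts was not tested. Most genes had few peaks, which limits every ratio of a single gene.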
